A study of Rattus norvegicus with 15 samples.

Results

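The mesenteric artery of male Dahl salt-sensitive rats was compared between 4 wild-type libraries and 4 libraries from rats that lack a noncoding interval beside Npr3. These 8 libraries were all the mesenteric artery samples among the 15 of the series; the other 7 were kidney cortex. Genes were kept when the row carried an identifier and the mean over the 8 arteries was at least 0.5 FPKM, which left 16470 of 34357 genes. FPKM, fragments normalised for transcript length and for sequencing yield, is the unit throughout. Both groups share the background of the Dahl salt-sensitive (SS) rat, an inbred model of hypertension driven by dietary salt. The deletion removed 30.4 kb of chromosome 2 (rn7, from 60825801 to 60856216), orthologous to a noncoding stretch of linked human variants. The labels give the sex, tissue and genotype of each library. They give no age, diet or number of founder lines, and do not say whether a library holds the artery of 1 animal.

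The mesenteric arteries carry blood to the gut, and their smaller branches help to set vascular resistance. Their wall holds an inner endothelium, a layer of contractile smooth muscle and an outer adventitia, and dissected vessels carry fat, nerve and lymphoid tissue on their outer side. Natriuretic peptides relax such vessels through the guanylyl cyclase receptors Npr1 and Npr2, which make cyclic GMP, whereas Npr3 binds the same peptides and removes them. The question asked by the deposit is which genes the loss of the interval influences.

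The arteries carried the markers of their label. Acta2, the smooth muscle actin, ranged from 512 to 1074 FPKM over the 8 libraries, and Myh11, the smooth muscle myosin heavy chain, from 162 to 392. Slc34a1, a phosphate transporter of the kidney tubule, lay between 0 and 1.07 FPKM in the arteries. Adipoq, the fat cell hormone adiponectin, ranged from 530 to 1053 FPKM, so fat cells were part of every sample. In bulk tissue, fewer cells of a type and less RNA per cell cannot be told apart.

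Single arteries stood apart through tissues that lie next to the vessel. Wild-type 3 and deletion 2 held lymphoid RNA, with Ms4a1, the B cell antigen CD20, at 27.0 and 24.7 FPKM against 0.315 to 3.15 in the other 6. Cxcl13, a chemokine of lymphoid follicles, stood at 45.8 and 21.8 FPKM in these same arteries and at 4.81 or less elsewhere. Deletion 3 shared part of this pattern, with the macrophage receptor Marco at 25.7 FPKM beside 71.1 in wild-type 3 and 9.57 in deletion 2. Wild-type 4 held 33% of its summed FPKM in haemoglobin transcripts, against 1.61% to 12% in the other arteries. It also held Hbe1 and Hbe2, embryonic-type globins, at 41.9 and 33.4 FPKM. Wild-type 4 and deletion 4 held pancreatic enzymes: trypsinogen Prss1 stood at 13 and 16.7 FPKM there and at 1.11 or less in the rest. Wild-type 1 held intestinal RNA, with Fabp6, the ileal bile acid binding protein, at 32.1 FPKM against at most 1.18. Deletion 2 held the most mesothelial RNA, with Msln at 82.0 FPKM against 0.586 to 28.2. In wild-type 3, the ribosomal RNA LOC120093067 reached 12790 FPKM against 73.4 to 377, and the mitochondrial ribosomal RNA mt-Rnr1 558 against 3.53 to 34.4. The summed FPKM ran from 285679 to 433477, read depth is unknown, and no library was left out of the main test.

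**Figure D1:**
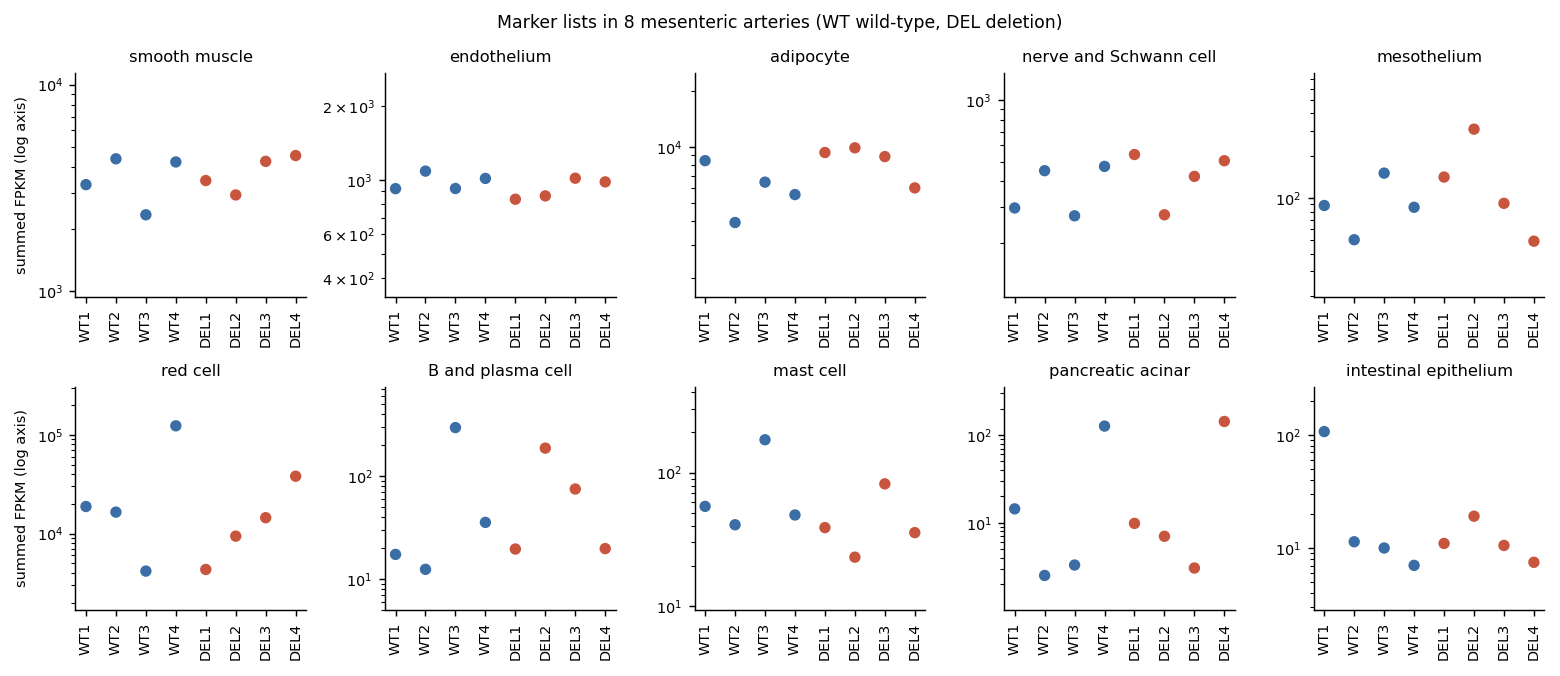
Summed FPKM (log axis) of 10 marker lists in each of the 8 arteries, wild-type in blue (WT) and deletion in red (DEL); each point is 1 library. Wild-type 4 lies highest for red cells (123300), deletion 4 (142) and wild-type 4 (126) for pancreatic enzymes, wild-type 1 (107) for intestinal epithelium, and wild-type 3 (294) for B and plasma cells.

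The libraries rich in RNA of neighbouring tissues lay at the ends of the main axes of variation. The first principal component, 35% of the variance, ran from -25.5 in wild-type 2 to 51.3 in wild-type 3, with deletion 2 at 31.9 and deletion 3 at 12.4. Its high end was led by an immunoglobulin constant region (LOC120093161) and by Clec4m, a lectin of lymph node sinuses. The second component, 19.2% of the variance, set wild-type 4 at -42.9 apart from the other 7 arteries, which lay between -8.6 and 24.1. Genotype took up 11.7% of the sum of squares over all genes tested. Any split of the libraries into groups takes up some share, and this one was not set against other splits. On both components, values of wild-type and deletion arteries overlapped.

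**Figure D2:**
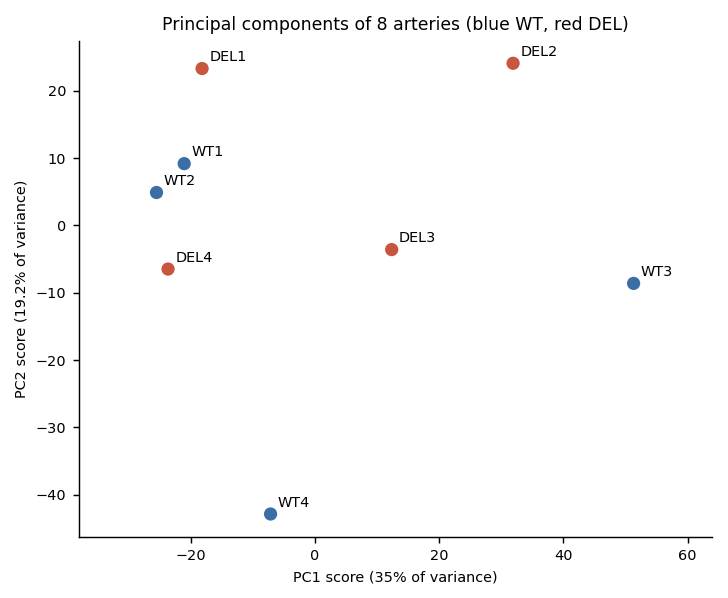
Scores of the 8 arteries on the first (35% of variance) and second (19.2%) principal components of log2(FPKM + 0.5), wild-type in blue (WT) and deletion in red (DEL). WT3 and DEL2 lie at the right and WT4 at the bottom, and the colours do not separate.

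Across all genes, limma called 0 of 16470 (0.0%) at an adjusted p under 0.05. At an unadjusted p under 0.05 there were 863 genes (5.24%), 613 higher in deletion arteries (3.72%) and 250 lower (1.52%). The groups did not overlap for 378 genes that were higher (2.3%) and 157 that were lower (0.953%). The balance of directions depended on the scaling. After median-of-ratios scaling 46.4% of the genes at an unadjusted p under 0.05 were higher, and after quantile normalization 50.4%, beside 71.0% as deposited. The median log2 fold change of all genes moved only from 0.04 to 0.0004 with median-of-ratios scaling, and the share of all genes with a value above 0 was 59.7% as deposited.

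The comparison was precise enough to bound most genes. For 14686 genes (89.2%) the 95% interval of the fold change lay within a doubling or a halving. This share was 96.0% of the 5672 genes at 10 FPKM or more, 90.2% of the 6763 genes from 2 to 10 FPKM, and 77.8% of the 4035 genes below 2 FPKM. No label says that the libraries come from separate animals, so p-values measure only the spread between these libraries.

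Npr3 and its pathway came first in the question. Inside the interval lies 1 gene model without identifier, LOC108350170, on the plus strand from 60847918 to 60848940. All 15 libraries list it at 0, so it gives no check of the genotype labels. Npr3 (chromosome 2, 60865483 to 60933432, minus strand) lies beyond the interval, with its 3′ end 9.3 kb and its start of transcription 77.2 kb away. It stood at 30.7, 27.8, 19.1 and 22.3 FPKM in the wild-type and 28.4, 42.6, 26.5 and 32.05 FPKM in the deletion arteries. The highest value was that of deletion 2 and the lowest that of wild-type 3, and the groups overlapped. The mean difference was 7.41 FPKM (exact permutation p = 0.143, two-sided, over 70 arrangements, of which the smallest p is 0.0286), and the log2 fold change 0.37 (95% interval -0.04 to 0.78, limma adjusted p = 0.893). With wild-type 3 and deletion 2 both left out, the log2 fold change of Npr3 was 0.11. In the main fit the nearest measured neighbours differed by less than Npr3. Tars1, a threonyl-tRNA synthetase on the far side of the interval, stood at 12.3 ± 0.734 FPKM (SD, n = 4) in wild-type and 13.03 ± 0.802 in deletion arteries. Sub1, a transcription coactivator beyond Npr3, stood at 30.5 ± 8.7 and 33.0 ± 5.03 FPKM (SD, n = 4). Of 17 measured genes around the interval, 0 reached an unadjusted limma p under 0.05 (5.24% of all genes did). All 17 had intervals within 2-fold, as did 89.2% of all genes.

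Differences in the receptors and enzymes of natriuretic signals were bounded within 2-fold. Npr1, the receptor for the atrial and B-type peptides, held 11.3, 12.2, 11.97 and 9.59 FPKM in wild-type libraries, and 10.6, 13.6, 10.01 and 12.9 in the deletion group, a log2 fold change of 0.05 (95% interval -0.23 to 0.33). For Npr2, the receptor of the C-type peptide, the value was 0.12 (-0.27 to 0.52). Gucy1a1, a subunit of the nitric oxide receptor, stood at 60.0 ± 10.5 and 64.5 ± 10.1 FPKM (SD, n = 4), and Pde3a, which breaks down cyclic nucleotides, at 31.8 ± 6.0 and 30.2 ± 6.75. Corin, the protease that activates the atrial peptide precursor, was the single gene of the 20 listed at an unadjusted limma p under 0.05, a share near the 5.24% of all genes. It held 0.857, 1.18, 0.957 and 1.58 FPKM in wild-type libraries, and 1.99, 1.80, 1.71 and 1.32 in the deletion group. Its groups overlapped through deletion 4, and the log2 fold change was 0.44 (limma adjusted p = 0.893). Pde1b, a calcium-dependent phosphodiesterase, was highest in deletion 2 (12.3 FPKM) and lay between 5.11 and 7.34 elsewhere. The neutral endopeptidase Mme, which degrades the peptides, stood at 30.9 ± 7.69 and 37.9 ± 8.42 FPKM (SD, n = 4). Over the 20 measured members the median log2 fold change was 0.088, beside 0.0436 for all genes, and -0.028 when wild-type 3 was left out. All 20 intervals lay within 2-fold (89.2% of all genes had such intervals).

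Among vasoactive ligands and receptors, 3 of 44 genes were higher in all 4 deletion arteries than in any wild-type artery (2.3% of all genes were). Aplnr, the apelin receptor of endothelium, held 8.83, 9.47, 5.86 and 6.52 FPKM in wild-type libraries, and 11.99, 11.95, 9.80 and 11.9 in the deletion group. Its lowest deletion value, in deletion 3, lay just above the highest wild-type value. The log2 fold change was 0.56 (limma unadjusted p = 0.00504, SE 0.16, adjusted p = 0.893). Agt, angiotensinogen, the precursor of angiotensin and a gene that fat cells also express, held 52.2, 54.2, 49.2 and 40.5 FPKM against 69.8, 104, 78.3 and 58.6. Deletion 2 was highest and deletion 4 lowest among the deletion arteries, and the log2 fold change was 0.64 (SE 0.18, limma adjusted p = 0.893). Adra1d, an alpha-1 adrenergic receptor that contracts arteries, held 1.66, 2.55, 1.88 and 2.56 FPKM against 3.36, 2.99, 3.42 and 3.53, a log2 fold change of 0.54 (SE 0.16, limma adjusted p = 0.893).

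In the other direction stood Ptgs2 and Calcrl. Ptgs2, the inducible cyclooxygenase that makes prostaglandins, held 15.8, 9.95, 7.97 and 7.94 FPKM in wild-type libraries, and 4.27, 3.42, 8.15 and 5.27 in the deletion group. Deletion 3 overlapped the wild-type range, and the log2 fold change was -0.93 (SE 0.27, limma adjusted p = 0.893). Calcrl, the receptor subunit for adrenomedullin and calcitonin gene-related peptide, both dilators, held 56.0, 56.4, 57.2 and 51.4 FPKM against 38.5, 40.3, 52.7 and 47.0 (log2 fold change -0.32, SE 0.12). Its partner Ramp2 stood at 89.7 ± 8.78 and 76.4 ± 21.2 FPKM (SD, n = 4), with deletion 3 highest of all 8 at 108. These 5 were the members of the 44 measured at an unadjusted limma p under 0.05, beside 5.24% of all genes. Leaving out deletion 3 gave 8, of which 4 were higher and 4 lower. No share of all genes from that fit is given, so this count cannot be read as a result about the list. The list median was -0.035, and 16 members lay above 0 and 28 below (59.7% and 40.3% of all genes did).

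**Figure D3:**
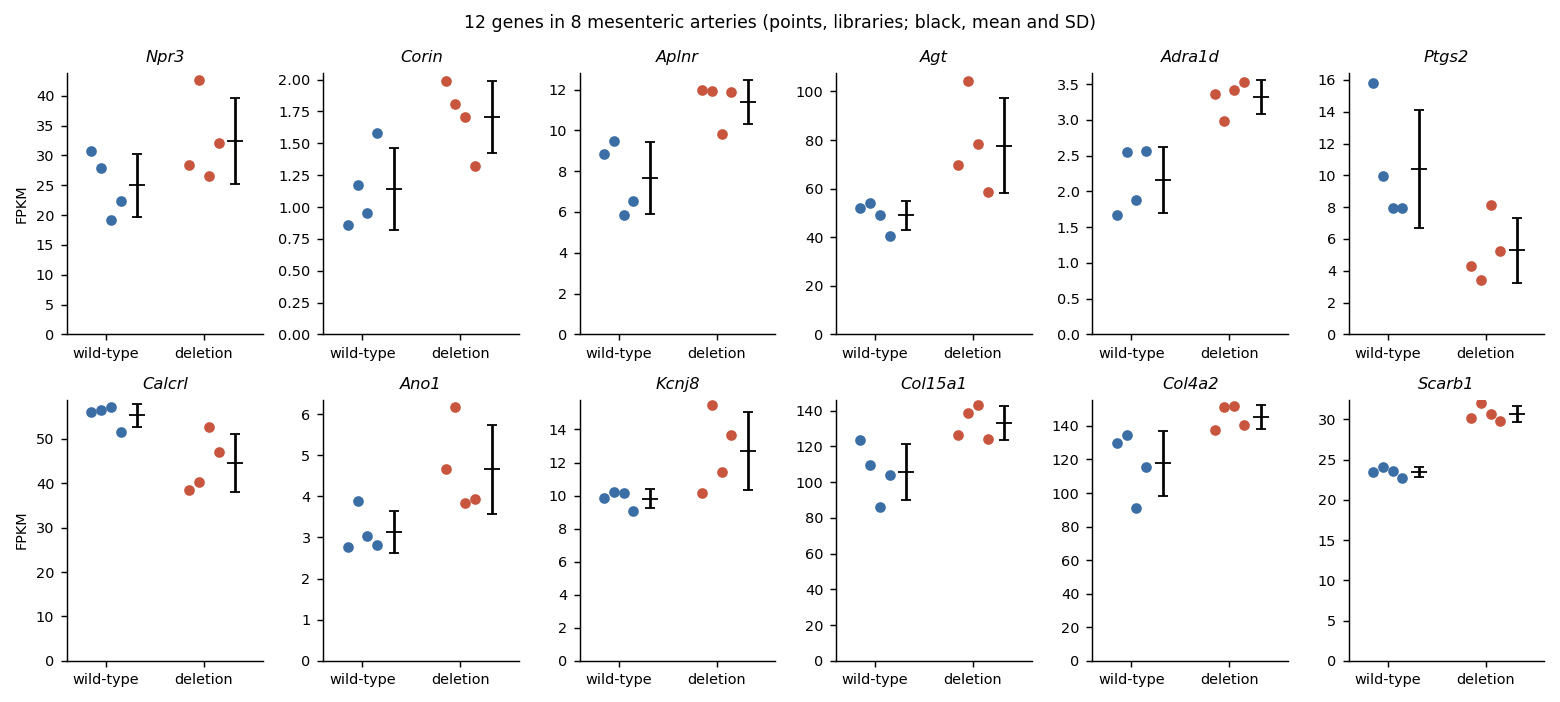
FPKM of 12 genes in the 4 wild-type (blue) and 4 deletion (red) arteries; points are libraries, and black bars give mean and SD. Aplnr, Agt, Adra1d, Col15a1, Col4a2 and Scarb1 do not overlap between groups, whereas Npr3, Corin, Ptgs2, Calcrl, Ano1 and Kcnj8 do.

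Smooth muscle genes gave no call, and the groups overlapped for all 28. Over all genes, 2.3% were higher without overlap and 0.953% lower. Acta2 held 559, 948, 512 and 1042 FPKM in wild-type libraries, and 693, 576, 1074 and 961 in the deletion group, with wild-type 3 and deletion 2 on the low side. The log2 fold change was 0.14 (95% interval -0.53 to 0.80, limma adjusted p = 0.952). Myh11 held 303, 337, 162 and 263 FPKM against 311, 229, 258 and 392 (log2 fold change 0.18, 95% interval -0.39 to 0.75). Tagln, the actin-binding protein SM22, stood at 827 ± 263 and 834 ± 248 FPKM (SD, n = 4). Of the 28 measured members 0 reached an unadjusted limma p under 0.05 (5.24% of all genes did). Above 0 lay 24 (59.7% of all genes did), and 27 had intervals within 2-fold (89.2% of all genes did). Those with the smallest p were Smoc1, a matrix protein (log2 fold change 0.27), the receptor Notch3 (0.31), the adhesion molecule Mcam (0.22) and the potassium channel subunit Kcnab1 (-0.37). The median of 0.134 turned to -0.035 without wild-type 3.

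Of the 44 ion channels and transporters of arterial muscle, 3 reached an unadjusted limma p under 0.05, all higher (3.72% of all genes were). The count was 1 when wild-type 4 or deletion 2 was left out, and 0 with wild-type 3 and deletion 2 both left out. Ano1, the calcium-activated chloride channel that depolarizes the muscle, held 2.78, 3.89, 3.04 and 2.81 FPKM in wild-type libraries, and 4.68, 6.18, 3.84 and 3.93 in the deletion group. Wild-type 2 overlapped the deletion range, and the log2 fold change was 0.49 (SE 0.17, limma adjusted p = 0.893). Kcnj8, the pore of the ATP-sensitive potassium channel, held 9.85, 10.2, 10.2 and 9.04 FPKM against 10.2, 15.5, 11.4 and 13.7 (log2 fold change 0.34). The groups did not overlap for Orai1, the store-operated calcium channel, which held 3.91, 3.49, 3.85 and 3.71 FPKM against 4.44, 4.26, 4.36 and 4.90. The 24 regulators of contraction held 0 genes at an unadjusted p under 0.05 (5.24% of all genes). All 24 intervals were within 2-fold (89.2% of all genes). Rgs2, which limits G protein signals in arteries, was nearest with 31.9 ± 2.67 and 37.0 ± 3.31 FPKM (SD, n = 4), followed by the guanine nucleotide exchange factor Arhgef25 (log2 fold change 0.34), the myosin phosphatase subunit Ppp1cb (-0.27) and the kinase Dapk3 (0.17).

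Endothelial genes went both ways. Beside Aplnr, Gja5, the gap junction protein connexin 40, reached an unadjusted limma p under 0.05. It held 30.0, 32.2, 30.5 and 42.4 FPKM in wild-type libraries, and 19.8, 24.5, 30.3 and 26.3 in the deletion group (log2 fold change -0.41, SE 0.15). Pecam1, the adhesion molecule CD31, held 173, 188, 171 and 203 FPKM against 133, 129, 189 and 157 (log2 fold change -0.29, 95% interval -0.62 to 0.05). Vwf, von Willebrand factor, stood at 122 ± 9.99 and 105 ± 19.99 FPKM (SD, n = 4), Icam2 at 20.6 ± 1.87 and 16.2 ± 4.99, and the sialomucin Emcn at 27.2 ± 7.29 and 33.6 ± 2.98. For Icam2, deletion 3 lay above all wild-type arteries while the other 3 deletion arteries lay below them. The median over 25 genes was -0.017, and all 25 intervals lay within 2-fold (89.2% of all genes had such intervals).

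Of 17 collagens, 4 were higher in deletion arteries at an unadjusted limma p under 0.05 (3.72% of all genes were), and the most abundant fibrillar collagens differed by less than their spread. Col15a1, a collagen of the basement membrane zone, held 123, 109, 85.9 and 104 FPKM in wild-type libraries, and 126, 139, 143 and 124 in the deletion group. Every deletion value lay above every wild-type value, by little for wild-type 1, and the log2 fold change was 0.34 (SE 0.13, limma adjusted p = 0.893). Col4a2, a chain of basement membrane collagen, held 130, 135, 91.0 and 115 FPKM against 138, 152, 152 and 141 (log2 fold change 0.32). Col16a1, which borders fibrils, and Col5a3, a minor fibril chain, stood at 0.44 and 0.48 on the log2 scale. The fibrillar Col3a1 stood at 1222 ± 320 and 1202 ± 240 FPKM (SD, n = 4), and Col1a1 at 438 ± 85.8 and 451 ± 93.2. Over the list, 15 collagens lay above 0 (59.7% of all genes did), with a median of 0.15. The count of 4 was 1 after median-of-ratios scaling and 0 without wild-type 3 (median 0.075) or wild-type 4. It was 1 without deletion 1, 2 or 3, 2 without deletion 4, and 6 without wild-type 1.

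Elastic fibre genes had a median of 0.016 over 17 members, with 0 at an unadjusted limma p under 0.05 (5.24% of all genes). Eln, tropoelastin, held 256, 198, 149 and 300 FPKM in wild-type libraries, and 196, 84.8, 369 and 170 in the deletion group, so both extremes lay in the deletion group. Lox, which crosslinks collagen and elastin, stood at 51.2 ± 11.6 and 41.0 ± 16.4 FPKM (SD, n = 4), and Efemp2, which assembles elastic fibres, at 11.5 ± 1.88 and 13.9 ± 2.21. Of 20 fibroblast genes 15 lay below 0 (40.3% of all genes did), with a median of -0.134. At an unadjusted limma p under 0.05 there were 0 (5.24% of all genes). When deletion 3 was left out 8 were lower at that threshold and the median was -0.235. No share of all genes from that fit is given beside this count, so it cannot be read as a result about these genes. The median was -0.083 when deletion 1 was left out. Dcn, the proteoglycan decorin, held 682, 680, 687 and 926 FPKM against 413, 383, 1195 and 570. Deletion 3 was the highest and deletion 2 the lowest of all 8. The adventitial Fbln1 had the same order of deletion arteries, with 30.7, 27.9, 63.0 and 52.1 FPKM, beside 52.5, 49.5, 57.2 and 60.6 in wild-type. Clec3b, tetranectin, was on the other side at 133 ± 14.9 and 168 ± 27.4 FPKM (SD, n = 4).

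Genes of energy metabolism were mostly above 0. Of 53 nuclear genes of oxidative phosphorylation 47 lay above 0 (59.7% of all genes did), with a median log2 fold change of 0.226. At an unadjusted limma p under 0.05 there were 14 higher and 1 lower, beside 3.72% and 1.52% of all genes. The groups did not overlap for 8, all higher, beside 2.3% of all genes. Ndufv1, a core subunit of complex I, held 22.3, 22.4, 25.7 and 27.3 FPKM in wild-type libraries, and 30.5, 36.7, 30.4 and 30.2 in the deletion group (log2 fold change 0.38, SE 0.11, limma adjusted p = 0.893). Sdhc, an anchor of complex II, held 45.2, 47.6, 50.7 and 53.3 FPKM against 62.2, 74.8, 74.3 and 54.7. Uqcrc1 of complex III stood at 35.2 ± 2.64 and 44.9 ± 4.80 FPKM (SD, n = 4). For Cox5a, a subunit of cytochrome c oxidase, these were 26.3 ± 2.15 and 35.3 ± 5.10 FPKM. In each of these 4 genes deletion 2 was highest and deletion 4 the lowest of the deletion group. Summed over the list, deletion 4 at 2546 FPKM lay inside the wild-type range of 2268 to 2647, while deletion 2 and deletion 3 stood at 3262 and 3255. The count of 14 was 4 without wild-type 1, 5 without deletion 2, 9 without wild-type 2 or deletion 3, and 7 after median-of-ratios scaling, and the median stayed between 0.17 and 0.276 in all 20 alternative fits.

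Glycolysis showed a like pattern, with 22 of 26 genes above 0 (59.7% of all genes were) and a median of 0.242. Ldha, lactate dehydrogenase, held 121, 150, 140 and 157 FPKM in wild-type libraries, and 197, 198, 169 and 178 in the deletion group (log2 fold change 0.39, SE 0.13, limma adjusted p = 0.893). Tpi1, triose phosphate isomerase, was nearly constant in wild-type at 63.7 ± 1.26 FPKM and spread over 84.1 ± 14.7 in deletion arteries (SD, n = 4). Gapdh held 109, 104, 112 and 118 FPKM against 136, 122, 134 and 139, again without overlap (log2 fold change 0.26). Pgam1, phosphoglycerate mutase, overlapped through deletion 4, at 47.8 ± 4.96 and 59.2 ± 7.13 FPKM. There were 7 genes higher at an unadjusted limma p under 0.05 (3.72% of all genes were), and this count was 2 after median-of-ratios scaling, 2 without wild-type 2, deletion 1 or deletion 3, and 4 without wild-type 1 or deletion 2.

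Fatty acid oxidation and the mitochondrial ribosome lay lower in size. Echs1, which hydrates enoyl-CoA, held 38.1, 39.8, 47.5 and 40.4 FPKM in wild-type libraries, and 52.6, 79.6, 53.3 and 51.7 in the deletion group (log2 fold change 0.49, SE 0.15, limma adjusted p = 0.893). The acyl-CoA dehydrogenases Acads and Acadm were higher without overlap, at 0.40 and 0.32, and the thiolase Acaa1a stood at 0.46 with overlap. Of the 23 genes of this list 18 lay above 0 (59.7% of all genes did), with a median of 0.126. Mrps28, a protein of the small mitochondrial ribosomal subunit, had the second smallest p of all genes. It held 7.45, 7.97, 8.06 and 7.87 FPKM in wild-type libraries, and 11.4, 12.1, 11 and 10.5 in the deletion group, a log2 fold change of 0.49 (limma unadjusted p = 0.000203, SE 0.08, adjusted p = 0.893). Its spread within each group was small beside the gap between them. The list median was 0.135 over 74 genes, with 9 higher and 1 lower at an unadjusted p under 0.05 (3.72% and 1.52% of all genes). Leaving out wild-type 1 or deletion 3 left 2 higher, and leaving out deletion 2, or median-of-ratios scaling, 3. The single lower one was Mrpl46, at 4.11 ± 0.537 and 2.88 ± 0.663 FPKM (SD, n = 4), beside Mrpl15 at 0.29 and Mrpl53 at 0.49 on the log2 scale.

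Fat cell genes were above 0 in 30 of 32 cases (59.7% of all genes were), with a median of 0.36. Slc2a4, the insulin-regulated glucose transporter, held 21.99, 17.8, 26.9 and 17.2 FPKM in wild-type libraries, and 42.7, 36.5, 28.7 and 27.7 in the deletion group. The groups did not overlap, and the log2 fold change was 0.68 (SE 0.18, limma adjusted p = 0.893). Srebf1, the regulator of lipid synthesis, held 39.6, 43.8, 39.3 and 34.9 FPKM against 55.7, 61.8, 48.5 and 44.4, also without overlap (log2 fold change 0.41). Pnpla3, a lipid droplet enzyme, spread from 17.4 to 37.8 FPKM in wild-type and from 37.4 to 97.7 in deletion arteries, and Dgat2, which completes triglycerides, stood at 231 ± 53.8 and 331 ± 59.6 (SD, n = 4). The most abundant fat cell genes had overlapping groups. Adipoq held 787, 530, 584 and 708 FPKM against 598, 1053, 896 and 573 (log2 fold change 0.23, 95% interval -0.31 to 0.77). Fabp4, the fatty acid carrier of fat cells, stood at 586 ± 168 and 608 ± 231 FPKM (SD, n = 4). Scd, the stearoyl-CoA desaturase, ran from 321 in wild-type 2 to 3892 in deletion 1. At an unadjusted limma p under 0.05, 7 genes were higher (3.72% of all genes were). This count dropped to 3 when deletion 2 was left out and to 4 when wild-type 4 was, and reached 11 when wild-type 1 and 12 when deletion 4 was left out. The summed level of the list overlapped between groups, at 3949 to 8444 and 6044 to 9891 FPKM. The part of fat content in these values was not tested.

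Among sterol and serine genes, Scarb1 and Phgdh separated the groups. Scarb1, the receptor that takes up cholesterol from high density lipoprotein, held 23.5, 24.1, 23.6 and 22.7 FPKM in wild-type libraries, and 30.2, 31.99, 30.7 and 29.7 in the deletion group. The gap between groups exceeded the whole spread within either, and the log2 fold change was 0.38 (limma unadjusted p = 0.000613, SE 0.08, adjusted p = 0.893). The synthesis enzymes Fdft1, Lss and Dhcr7 stood at 0.34, 0.42 and 0.48, each with overlap through deletion 3 or deletion 4. Of 24 genes 18 lay above 0 (59.7% of all genes did), with a median of 0.135. Phgdh, which commits glycolytic carbon to serine, held 20.9, 18.9, 22.2 and 23.2 FPKM against 29.1, 32.7, 33.5 and 28.1, a log2 fold change of 0.52 (limma unadjusted p = 0.000451, SE 0.10, adjusted p = 0.893). Psat1, the next enzyme, overlapped at 27.2 ± 4.65 and 34.4 ± 7.05 FPKM (SD, n = 4). The folate enzyme Aldh1l1 stood at 0.48 and the stress pseudokinase Trib3 at 0.50. The serine and one-carbon list as a whole had a median of 0.014 over 20 genes.

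**Figure D4:**
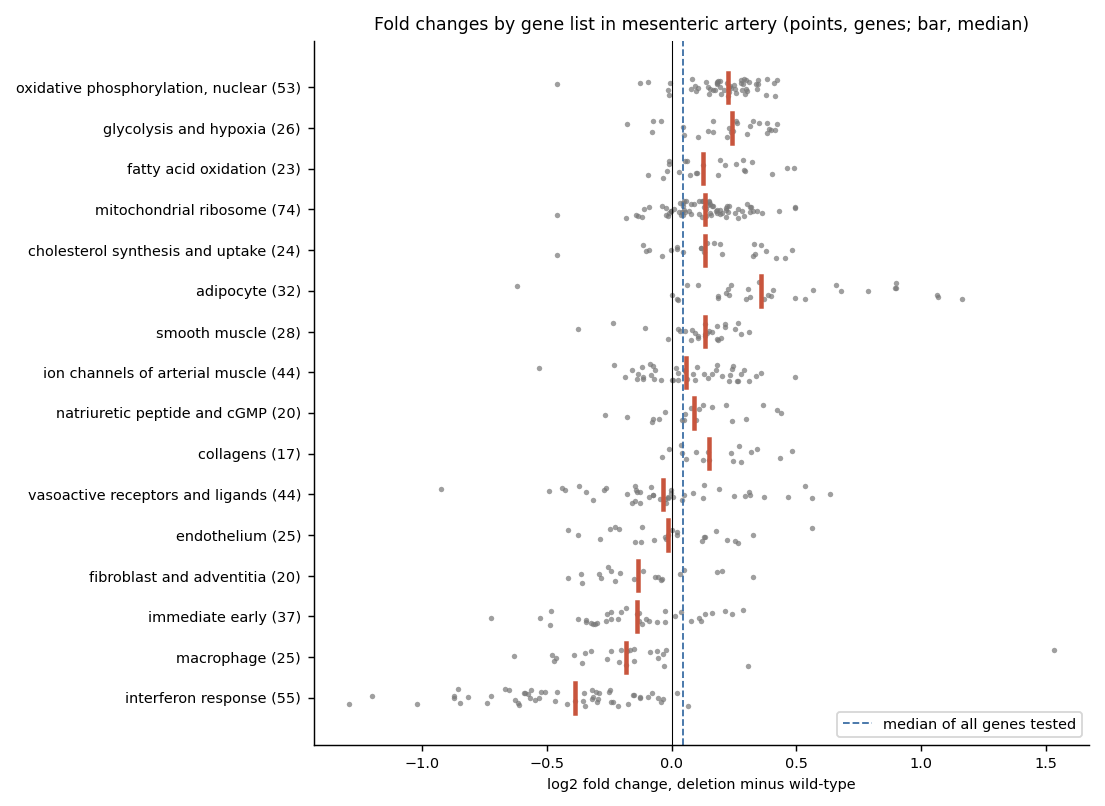
Log2 fold change (deletion minus wild-type) of each measured member of 16 gene lists, with list size in brackets; points are genes, red bars the list medians, and the dashed line the median of all 16470 genes (0.0436). Energy and adipocyte lists lie to the right (0.226 for oxidative phosphorylation, 0.36 for adipocyte) and the interferon list to the left (-0.386).

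Genes induced by interferon were mostly lower in the deletion arteries. Of 55 measured members 53 lay below 0 (40.3% of all genes did), and the list median was -0.386 on the log2 scale. Of the 55, 27 reached an unadjusted limma p under 0.05, all lower, beside 1.52% of all genes. The groups did not overlap for 8 members, all lower, beside 0.953% of all genes. These genes respond to interferon through transcription factors that bind an element with paired GAAA repeats. The list was chosen with results of these libraries known, so its direction is no independent evidence.

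The promoters of the list carried that element often. RefSeq (GRCr8) promoters of 300 bases, 250 before and 50 after the start of transcription, matched 42 of the 55 members. The motif GAAANNGAAA, read on both strands, was present in 27 of the 42 (64.3%) and in 3.92% of all 33469 promoters of that length. Among the matched members that were lower at an unadjusted p under 0.05, 13 of 20 held it (65.0%), and among the rest 14 of 22 (63.6%). The promoters below belong to the 4 members of smallest p that hold it, with the motif in capitals (read as TTTCNNTTTC where it lies on the other strand). They show how close it sits to the start: 151, 56, 59 and 16 bases before it.
Oasl2: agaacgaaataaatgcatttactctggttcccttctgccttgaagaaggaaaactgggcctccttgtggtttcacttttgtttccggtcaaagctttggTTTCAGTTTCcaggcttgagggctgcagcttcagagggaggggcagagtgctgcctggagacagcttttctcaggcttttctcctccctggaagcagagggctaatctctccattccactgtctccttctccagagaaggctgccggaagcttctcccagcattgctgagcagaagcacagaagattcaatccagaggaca
Gbp5: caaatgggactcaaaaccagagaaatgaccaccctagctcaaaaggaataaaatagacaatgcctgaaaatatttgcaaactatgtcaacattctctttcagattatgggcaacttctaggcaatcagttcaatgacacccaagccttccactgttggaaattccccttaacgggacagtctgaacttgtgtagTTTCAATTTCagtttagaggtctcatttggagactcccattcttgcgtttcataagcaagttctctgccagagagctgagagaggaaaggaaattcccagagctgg
Ifih1: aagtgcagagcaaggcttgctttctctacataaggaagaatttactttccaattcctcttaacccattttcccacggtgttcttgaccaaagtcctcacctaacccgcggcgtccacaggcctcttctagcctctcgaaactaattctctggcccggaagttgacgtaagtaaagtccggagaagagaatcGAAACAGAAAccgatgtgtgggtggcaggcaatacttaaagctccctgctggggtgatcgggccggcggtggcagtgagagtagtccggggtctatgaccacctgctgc
Eif2ak2: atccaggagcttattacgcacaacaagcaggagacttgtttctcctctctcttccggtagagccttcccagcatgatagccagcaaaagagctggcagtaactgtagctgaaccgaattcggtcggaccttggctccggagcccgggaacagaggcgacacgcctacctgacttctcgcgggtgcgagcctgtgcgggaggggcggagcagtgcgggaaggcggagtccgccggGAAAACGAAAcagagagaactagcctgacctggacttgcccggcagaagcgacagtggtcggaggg
These lie at chr12:47383136-47383435 (minus strand), chr2:233910749-233911048 (plus), chr3:67683919-67684218 (minus) and chr6:21940904-21941203 (plus). The Herc6 promoter window holds no such run of letters.

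Oasl2, an antiviral protein related to oligoadenylate synthetases, held 12.4, 9.39, 9.53 and 14.6 FPKM in wild-type libraries, and 6.72, 7.07, 6.48 and 7.83 in the deletion group. Wild-type 1 and wild-type 4 were highest, all deletion values lay below all wild-type values, and the log2 fold change was -0.65 (limma unadjusted p = 0.00146, SE 0.15, adjusted p = 0.893). Herc6, a ligase of the ubiquitin-like protein ISG15, held 25.7, 15.04, 17.5 and 24.2 FPKM against 12.2, 12.3, 8.54 and 12.1 (log2 fold change -0.82, SE 0.19). Gbp5, a guanylate-binding protein, held 9.22, 8.58, 9.30 and 13.2 FPKM against 7.25, 6.198, 6.89 and 6.23 (log2 fold change -0.55). The deletion values of these genes were tighter than the wild-type values.

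Mx2, a dynamin-like antiviral protein, held 31.0, 14.1, 18.6 and 33.5 FPKM in wild-type libraries, and 12.3, 13.3, 12.03 and 11.98 in the deletion group, so wild-type 2 lay close to the deletion group. Its log2 fold change was -0.86 (SE 0.24, limma adjusted p = 0.893). Oas2, an oligoadenylate synthetase, was also lowest among wild-type arteries in wild-type 2, with 3.58, 1.30, 2.73 and 2.44 FPKM against 1.15, 0.939, 0.978 and 1.27. Samd9, an antiviral restriction factor outside the list, held 19.1, 13.7, 22.2 and 27.3 FPKM against 12.6, 12.5, 12.6 and 10.2 (log2 fold change -0.72). Pml, the scaffold of nuclear bodies and itself interferon-inducible, held 10.6, 8.39, 15.2 and 11.2 FPKM against 6.25, 6.66, 7.49 and 6.28 (log2 fold change -0.70).

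The most abundant members differed by less than their spread. Ifi27 stood at 140 ± 28.9 and 147 ± 37.2 FPKM (SD, n = 4), Ifitm2 at 105 ± 8.70 and 109 ± 27.6, and Ifitm3 at 107 ± 10.95 and 104 ± 9.55. The summed level of the list was 1600 FPKM in wild-type 4, 939 to 1175 in the other wild-type arteries and 834 to 1027 in the deletion arteries. Wild-type 4 also held the most haemoglobin and the neutrophil gene S100a8 at 13.7 FPKM, against at most 1.53 elsewhere. Red cell and neutrophil lists also lay below 0, with medians of -0.8 and -0.642, and these were 0.081 and 0.114 without wild-type 4. The part of that library's blood content was not tested. The median of the interferon list without wild-type 4 was -0.292. Leaving out wild-type 4 reduced the count of 27 to 12, and leaving out wild-type 3 to 13. It was 14 when deletion 3 was left out and 15 when deletion 1 or deletion 4 was. With both wild-type 1 and wild-type 4 left out it was 5, and 48 of 54 members lay below 0. No share of all genes from these fits is given beside these counts.

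**Figure D5:**
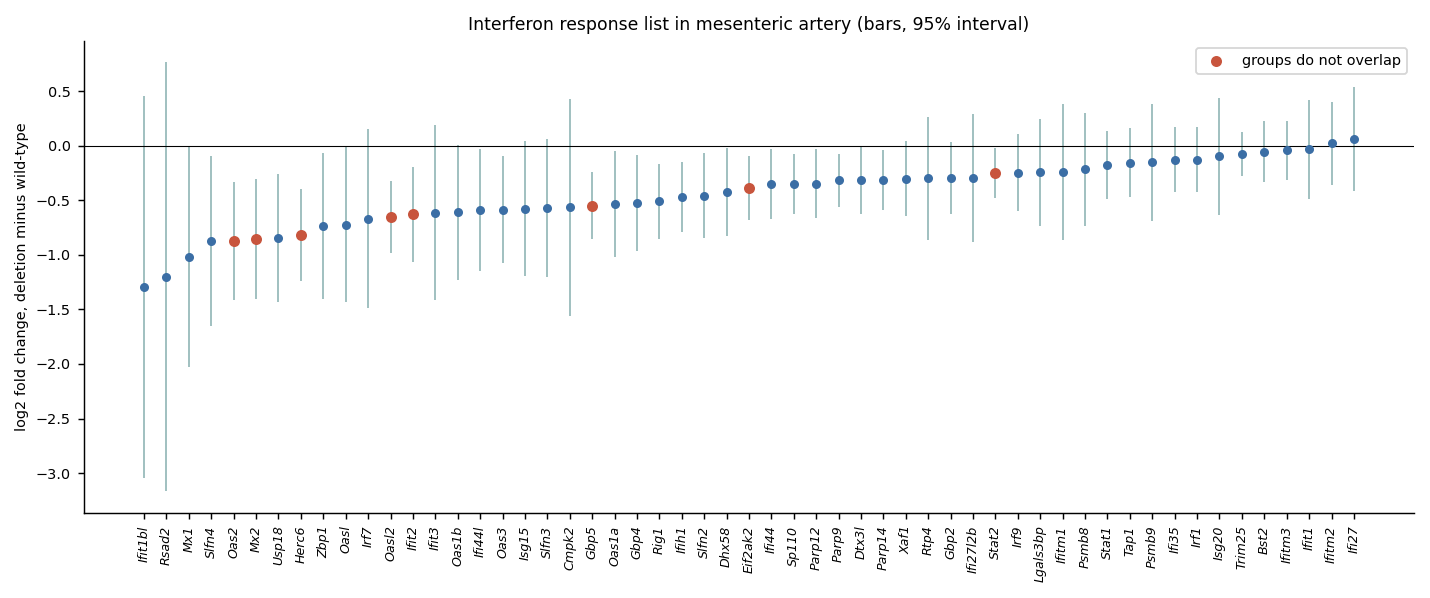
Log2 fold change with its 95% interval (vertical bars) of the 55 measured members of the interferon response list, ordered by fold change; red points mark the 8 members whose groups do not overlap. Of the 55 points 53 lie below 0, and the members with the lowest values have the widest intervals.

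Immune cell genes had wide spreads. Of 23 T and natural killer cell genes 22 lay below 0 (40.3% of all genes did), with a median of -0.457. Of these 23, 0 reached an unadjusted limma p under 0.05 (5.24% of all genes did), and 2 had intervals within 2-fold (89.2% of all genes did). The median of that list was -0.141 without wild-type 3. Below 0 also lay 23 of 25 macrophage genes and 11 of 12 mast cell genes. Ccr2, the chemokine receptor of recruited monocytes, held 3.40, 3.55, 3.67 and 4.83 FPKM in wild-type libraries, and 2.53, 1.99, 2.91 and 3.20 in the deletion group (log2 fold change -0.47, SE 0.17, limma adjusted p = 0.893). It was the single member of 25 macrophage genes at an unadjusted p under 0.05, a share near the 5.24% of all genes. The scavenger receptor Msr1 stood at 5.4 ± 1.64 and 3.46 ± 1.75 FPKM (SD, n = 4). The macrophage median of -0.184 was -0.034 without wild-type 3 and deletion 2. Mast cell genes were highest in wild-type 3 and deletion 3: the chymase Cma1 held 9.65, 6.68, 35.2 and 9.67 FPKM against 4.32, 2.99, 16.0 and 5.21. Il1rl1, the receptor of interleukin 33, stood at 5.62 ± 1.74 and 3.66 ± 0.797 FPKM. B2m, the invariant chain of class I antigen presentation, differed little, at 346 ± 43.6 and 309 ± 42.2 FPKM (SD, n = 4).

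Immediate early genes and chaperones respond to handling and stress. Of 37 immediate early genes 27 lay below 0 (40.3% of all genes did) with a median of -0.141, and 2 were lower at an unadjusted limma p under 0.05 (1.52% of all genes). Klf2, a flow-responsive factor of endothelium, held 45.2, 43.9, 39.0 and 38.0 FPKM in wild-type libraries, and 19.7, 34.4, 35.5 and 31.5 in the deletion group, without overlap (log2 fold change -0.48, SE 0.18, limma adjusted p = 0.893). Zfp36, which destabilizes cytokine messages, held 18.2, 16.0, 14.7 and 16.7 FPKM against 12.02, 11.8, 13.01 and 15.4 (log2 fold change -0.32). Klf4 and Btg2 stood at -0.38 and -0.26. Among chaperones 21 of 25 lay below 0, with Chordc1 at -0.27 and the Hsp110 protein Hsph1 at -0.40. For Hsph1 wild-type 2 held 23.9 FPKM and the other 7 arteries 10.3 to 14.4. The chaperone median of -0.091, with 1 gene lower at an unadjusted p under 0.05, was 0.001 with 0 such genes when wild-type 2 was left out.

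Redox genes split. Txn2, the mitochondrial thioredoxin, held 31.7, 33.7, 40.2 and 34.3 FPKM in wild-type libraries, and 44.6, 59.1, 40.9 and 41.6 in the deletion group (log2 fold change 0.40, SE 0.14, limma adjusted p = 0.893). Gsr, glutathione reductase, stood at 27.7 ± 2.56 and 34.0 ± 3.61 FPKM, and Gclc, which limits glutathione synthesis, at 13.8 ± 1.09 and 11.2 ± 1.75 (SD, n = 4). Nox4, an oxidase that makes hydrogen peroxide, held 6.27, 5.83, 6.67 and 5.22 FPKM against 3.05, 4.82, 5.49 and 4.49 (log2 fold change -0.41). The list of 27 had a median of 0.012. Clock genes had a median of -0.004 over 19 members, all with intervals within 2-fold (89.2% of all genes had such intervals). Dbp, a clock output gene that swings with time of day, stood at 70.1 ± 7.19 and 87.4 ± 16.6 FPKM (SD, n = 4), and Per3 at 24.6 ± 3.78 and 28.9 ± 3.83. Nerve genes were above 0 in 13 of 15 cases (59.7% of all genes were). Mbp, of myelin, held 31.3, 54.6, 31.8 and 49.2 FPKM against 65.1, 44.3, 52.8 and 67.1.

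Of the 20 genes with the smallest p, 11 were higher and 9 lower. LOC120094666, a gene model on chromosome 9, had the smallest. It held 2.46, 1.31, 4.04 and 3.45 FPKM in wild-type arteries and was listed at 0 in all 4 deletion arteries. It passed the filter on the mean only through the wild-type group, so a low p cannot be set against that of other genes. Its limma unadjusted p was 3.1e-06 and its adjusted p 0.051, or 0.181 with no filter, and no fold is given against a group listed at 0. In kidney, wild-type 2 held 1.12 FPKM, deletion 1 and 2 held 0.59099 and 0.82925, and the other 4 were listed at 0. It passed the threshold with a pseudocount of 0.1 (adjusted p = 0.00863), without haemoglobin and Rn7sl in the scaling (0.032), and without wild-type 2 (0.0053). In every other alternative fit it did not pass, with a limma adjusted p of 0.165 at a pseudocount of 1, 0.302 with the replicate block and 0.345 without wild-type 4.

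Mir511 is the row of a microRNA gene that lies inside Mrc1, the mannose receptor of macrophages. The row covers the precursor (chromosome 17, 77279415 to 77279493 on rn7, plus strand), and total RNA libraries of this kind do not measure the mature forms. It held 1.71, 1.15, 1.41 and 1.65 FPKM in wild-type libraries, and 0.370, 0.291, 0.254 and 0.722 in the deletion group. The deletion mean of 0.409 FPKM lies under the filter of 0.5, so the row passed only through the wild-type group. No values overlapped, and the log2 fold change was -1.14 (limma unadjusted p = 0.000275, SE 0.20, adjusted p = 0.893). Mrc1 itself stood at 21.7 ± 4.71 and 18.2 ± 5.39 FPKM (SD, n = 4), with overlap. The mature sequences of the gene in RefSeq (GRCr8) are shown to identify it, with the seed (bases 2 to 8) in capitals.
rno-miR-511-5p: cAUGCCUUuugcucugcacuc
rno-miR-511-3p: aAUGUGUAgcaaaagacagga

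Several of the 20 are small or unnamed RNAs, whose FPKM values rest on short lengths. LOC120103189, a small nuclear RNA, held 1.69, 1.78, 2.2 and 2.6 FPKM in wild-type libraries, and 5.23, 3.56, 3.53 and 4.14 in the deletion group (log2 fold change 0.85). LOC120095461, a small nucleolar RNA, stood at 4.22 ± 0.472 and 2.52 ± 0.344 FPKM, and a U6 small nuclear RNA of chromosome 1 at 2.24 ± 0.384 and 1.01 ± 0.276 (SD, n = 4). LOC687780 held 5.94, 3.96, 3.01 and 3.66 FPKM against 7.65, 7.73, 12.9 and 14.2, the highest log2 fold change among genes of at least 2 FPKM whose groups did not overlap (1.25, SE 0.25, limma adjusted p = 0.893). Near copies of such RNAs can share reads, so their values are uncertain.

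Spreads differed among the protein-coding genes of the 20. Plekhh3, a protein with lipid-binding domains, held 5.397, 5.39, 5.16 and 4.78 FPKM in wild-type libraries, and 7.71, 8.32, 6.69 and 7.65 in the deletion group (log2 fold change 0.51, SE 0.10, limma adjusted p = 0.893). Paqr6, a membrane progestin receptor, stood at 13.8 ± 2.44 and 21.2 ± 1.86 FPKM (SD, n = 4). Bdh2, a hydroxybutyrate dehydrogenase, stood at 6.12 ± 0.476 and 8.71 ± 0.920, and the zinc transporter Slc39a3 at 2.19 ± 0.200 and 3.68 ± 0.577. C12h12orf43 and Tmem132a were higher by 0.46 and 0.40 on the log2 scale. On the lower side, Fxyd5, a regulator of the sodium pump, held 10.2, 10.1, 11.97 and 10.5 FPKM against 7.32, 5.83, 7.66 and 7.94 (log2 fold change -0.55). Ly49si3, of the natural killer receptor family, stood at 1.42 ± 0.392 and 0.410 ± 0.200 FPKM. Its deletion mean lies under the filter of 0.5 FPKM, so the row passed only through the wild-type group. Its family has near-identical copies that can share reads.

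Among genes of at least 2 FPKM whose groups did not overlap, the largest values after LOC687780 were those of Prph (0.91), LOC120103189 (0.85), the long noncoding RNA LOC120099889 (0.76) and LOC100361934 (0.71). Prph, peripherin, an intermediate filament of peripheral neurons, held 2.13, 2.24, 1.16 and 1.97 FPKM in wild-type libraries, and 4.38, 8.13, 2.27 and 2.68 in the deletion group, so deletion 3 barely cleared wild-type 2. The lowest values were those of Mt2A (-0.86), Mx2 (-0.86), Herc6 (-0.82), the small nucleolar RNA LOC120098364 (-0.77) and Samd9 (-0.72). Mt2A, the metal-binding metallothionein, held 13.5, 23.8, 9.31 and 12.8 FPKM against 8.41, 5.94, 7.44 and 8.49. Another unnamed model, LOC120096562, chosen after its values were seen, split the deletion group: it held 9.64, 7.68 and 9.71 FPKM in deletion 1, 2 and 4, but 0.759 in deletion 3 and 0.436 to 0.788 in wild-type arteries. Its log2 fold change was 2.41 (SE 0.60, limma adjusted p = 0.893), and leaving deletion 3 out gave 3.13 with an adjusted p of 0.000987. That fit drops the 1 deletion artery that lay with the wild-type values. In every other alternative fit the limma adjusted p was at least 0.768.

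The effect of the deletion in artery was set against that in kidney cortex for 14072 genes measured in both. The interaction of tissue and genotype was called for 0 genes (0.0%), with 671 (4.77%) at an unadjusted limma p under 0.05. The library labelled kidney wild-type 3 went against its label of male, with Xist at 81.1 FPKM and the Y-linked Eif2s3y at 0, so the values below are also given without it. Leaving it out gave 0 called and 427 of 14164 (3.01%) at an unadjusted p under 0.05. Mrps28 differed between tissues by 0.83 on the log2 scale (limma unadjusted p = 0.0021, adjusted p = 0.894), and by 0.65 without that kidney. Aplnr differed by 0.74, and by 0.92 without it. Pml differed by -0.89, and by -0.74 without it, and Ccr2 by -1.19 and -1.03. For Npr3 the difference was 0.45, and 0.51 without it. The values of 4 interferon genes lay closer to 0 without it. Mx2 differed between tissues by -0.76, and by -0.30 without that kidney, Oas2 by -0.77 and -0.32, Oasl2 by -0.64 and -0.35, and Herc6 by -0.84 and -0.49. The kidney median of the interferon list was 0.018, and -0.192 without that kidney, beside -0.386 in artery. For oxidative phosphorylation the kidney median was -0.189, and -0.014 without it, beside 0.226 in artery. These lists were not tested between tissues.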

How the data were processed

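Total RNA from 8 mesenteric arteries and 7 kidney cortices was extracted with TRIzol and sequenced as whole-transcriptome libraries, per the labels' protocols. Listed in the submitters' processing notes, without roles, are HISAT2 2.2.1, DESeq2 1.46.0, Trim Galore 0.6.2 and the build rn7. The deposited table holds FPKM values computed by the authors with a tool not given in the sources used here. Low values are not whole multiples of 1 read, so depth is unknown and no counting interval is given. Of 40694 rows, 34357 carry an identifier; 1 deposited column of coverage, whose making the authors do not state, was not used.

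Genes averaging 0.5 FPKM or more across the 8 arteries were tested with limma 3.58.1 (R 4.3.3, trended and robust moderation) on log2(FPKM + 0.5), which understates fold changes of low genes, with Benjamini-Hochberg adjustment over all 16470 genes. Tissue and genotype were fitted together over all 15 libraries for the interaction. Npr3 was also tested by exact permutation. On simulated data for the artery comparison (16470 genes), 74% of 100 genes changed by 1 on the log2 scale were recovered. Of 100 changed by 2, 96% were recovered, and 5.03% of calls were false. The simulation drew independent normal noise for each gene and changed only genes with a mean log2 value above 1. It held no shift shared by the genes of a library, so these shares do not give the power of the real comparison. Summaries used Python 3.11.15, pandas 2.3.3 and matplotlib 3.10.9. Named genes were the markers, Npr3 and its neighbours, the 20 smallest p, the 5 highest and 5 lowest fold changes without overlap at 2 FPKM or more, in each list the 4 smallest p and 3 highest means, and genes that lead the components or mark single libraries; not all are printed, and some are not reported here. The genes, lists and alternatives were chosen with earlier results of these data known. Alternatives covered the pseudocount, filter, scaling, moderation, weights, replicate block and libraries left out. Shares of all genes beside list counts are those of the main fit. List counts from alternative fits stand without a share of their own. The kidney medians without 1 library were added after seeing the data.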

Additional observations from a re-analysis of the deposited data

Results flagged for a closer look

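In 26 of 286 groups of 4 arteries examined, 1 library lay far from the other 3 by Dixon's criterion at the 95% level, which sets the gap to the nearest library against the group's range. Chance alone sets such a library apart in about 1 in 20 groups. Every artery was set apart at least once, and several of these results were the tissue sums that already mark single libraries above. Wild-type 4 stood alone in the red cell sum (123000 FPKM against 4160 to 18800), the pancreatic sum (126 against 2.52 to 14.4), Gbp5 (13.2 FPKM) and Dcn (926 FPKM). Wild-type 3 stood alone in the B and plasma cell sum (294), the mast cell sum (176), the ribosomal RNA LOC120093067 (12800), mt-Rnr1 (558), Cma1 (35.2 FPKM) and, on the low side, Pde3a (22.9 FPKM). Wild-type 1 stood alone in the intestinal sum (107) and Fabp4 (838 FPKM). Wild-type 2 stood alone in the Rn7sl1 share (8.03%), Hsph1 (23.9 FPKM) and, on the low side, Gsr (23.9 FPKM).

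Among deletion arteries, deletion 3 was apart for 5 genes: Ramp2 (108 FPKM), Icam2 (23.6 FPKM) and Cma1 (16.0 FPKM) on the high side, and Aplnr (9.80 FPKM) and Herc6 (8.54 FPKM) on the low side. Deletion 2 was high in Echs1 (79.6 FPKM) and Ndufv1 (36.7 FPKM). Deletion 4 was high in the pancreatic sum (142) and low in Samd9 (10.2 FPKM) and Tars1 (11.8 FPKM), and deletion 1 was low in Vwf (75.5 FPKM).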

How the results depend on the processing

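The count of 0 genes called by limma at an adjusted p under 0.05 (863 at an unadjusted p under 0.05) became 1 with a pseudocount of 0.1 and 1 after rescaling without haemoglobin and Rn7sl, LOC120094666 each time. It was also 1 at an adjusted p under 0.1. Leaving out 1 library gave 0 to 1 genes: LOC120094666 without wild-type 2 and LOC120096562 without deletion 3. The unadjusted count fell to 438, and the share of genes bounded within 2-fold to 82.4%, when wild-type 1 and wild-type 4 were left out together, and that share was 81.0% with a pseudocount of 0.1. The first rests on fewer samples; for the second the cause was not tested.

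The labels do not say whether replicate numbers pair the samples. On deviations from the group means, the correlations of same-numbered arteries were 0.321, -0.342, 0.244 and 0.302. Those of differently numbered arteries ran from -0.447 to 0.446, so these values do not settle whether the numbers are pairs. The replicate block gave 0 genes called, 843 unadjusted and 90.1% bounded, 0.37 for Npr3 (limma unadjusted p = 0.0364, adjusted p = 0.889), and 0 for the interaction.

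Of 126 named genes, 111 kept the sign of their log2 fold change in every alternative that tested them (20, or 19 for Trib3, Mir511 and Ly49si3). The other 15 turned, and the cause was not tested. With 1 library left out, values ran from -0.02 to 0.12 for Npr1, -0.01 to 0.18 for Gucy1a1, -0.23 to 0.07 for Pde3a, -0.03 to 0.31 for Acta2, -0.04 to 0.31 for Myh11, -0.21 to 0.20 for Tagln, -0.13 to 0.15 for Col3a1 and -0.04 to 0.19 for Col1a1. They ran from -0.62 to 0.08 for Eln, -0.21 to 0.20 for Fabp4, -0.09 to 0.20 for Ifi27, -0.14 to 0.12 for Ifitm2, -0.10 to 0.01 for Ifitm3 and -0.04 to 0.30 for Sub1. Median-of-ratios scaling gave -0.02 for Tagln, -0.01 for Col1a1, -0.03 for Fabp4 and -0.03 for Ifitm2, quantile normalization 0.02 for Col3a1 and -0.04 for Ifitm2, and array weights -0.01 for Tagln and -0.13 for Fabp4. Without wild-type 3 and deletion 2, Tagln was -0.03, Fabp4 -0.28 and Ifi27 -0.02. Without wild-type 1 and wild-type 4, Npr1 was -0.05, Npr2 -0.00041, Pde3a 0.04, Col3a1 0.19, Eln 0.07, Ifi27 -0.003 and Sub1 -0.05. The unknown depth limits what low FPKM values can show.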
